A study of Sus scrofa with 4 samples.

Results

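Interleukin-6 (IL-6) family cytokines, their receptor subunits and the first steps of their signalling were followed through the differentiation of pig subcutaneous preadipocytes. Of the 10 genes of this family listed by symbol, 9 had an FPKM value among 16192 protein-coding genes, namely IL6, IL11, LIF, IL6R, IL6ST, OSMR, JAK2, STAT3 and SOCS3. LIFR was not analysed here. The list is read by gene symbol.

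Cytokines of this family bind a ligand-specific receptor subunit and then the shared subunit gp130, the product of IL6ST. The receptor complex activates Janus kinases, which phosphorylate STAT3 so that it enters the nucleus and acts on its target genes. SOCS3, itself a target of STAT3, binds gp130 and JAK2 and shuts the signal off. In fat tissue, IL-6 is secreted by stromal cells and adipocytes, and IL-11 is known as an inhibitor of adipogenesis in culture.

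RNA-Seq was carried out on cells of 3 male Chinese Erhualian piglets, which were 5 days old. The cells were isolated from minced subcutaneous fat by collagenase digestion and grown to confluence (D0), then kept for 2 days in a cocktail of dexamethasone, 3-isobutyl-1-methylxanthine and insulin (D2), for 2 more days in medium with insulin (D4), and in growth medium up to D8. The RNA of the 3 piglets was mixed in equal amounts before sequencing, so that each of the 4 stages is 1 library without replicates. Stage and library therefore cannot be told apart, no p-value compares stages, and fewer cells of a type cannot be told apart from less RNA per cell.

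The library totals behind FPKM (fragments scaled by transcript length and by the fragments of the library), computed from the steps in the values, ran from 54128151 fragments at D8 to 75387428 at D0. Whole fragments were obtained in this way for 9 of the 9 genes, and the 95% intervals given below come from these numbers and cover counting error only. The markers of the labelled cell type were present, since 8 of 8 stromal genes (PDGFRA, DCN and others) had FPKM of at least 1 in every library, with a summed level between 3116 and 5679. The summed FPKM of 8 adipocyte genes was 104 at D0 and then 379, 1591 and 2061 at D2, D4 and D8. FABP4 alone gave 853 FPKM at D4 and 1557 at D8. FABP4, CIDEC and LEP were higher at D8 than at D4, while PLIN1, LPL, LIPE, ADIPOQ and DGAT2 were lower. Markers of leukocytes were low in sum, between 4.49 and 9.38 FPKM over 8 genes, of which CD14 gave between 2.78 and 7.54. PTPRC, the pan-leukocyte antigen CD45, was at no more than 0.0712 FPKM. CD163 was under 1 FPKM at D0 and had 1.42, 1.01 and 1.38 at D2, D4 and D8. AIF1 reached 1.05 FPKM at D8. Of the 8 genes, 1, 2, 2 and 3 had at least 1 FPKM in the order of the stages. The part of leukocytes in the levels of the ligands was not tested. Markers of endothelium summed to between 1.16 and 2.65 FPKM over 5 genes.

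IL11 had the widest range of the 9 members, 38.4-fold between its highest and lowest FPKM, and its qRT-PCR primers are therefore shown. The study measured IL11 by qRT-PCR in replicate RNA samples of each stage and reported trends similar to those of RNA-Seq. The qRT-PCR values are not given here. Positions are those of the build Sscrofa11.1, where IL11 lies on the minus strand at chr6:59540482-59544909. Both primers are written 5′ to 3′ and carry no marked bases.
IL11 forward: ttcccagctgacggagatca
IL11 reverse: cgtgcctcaggtaggaaaaca

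A gene was taken as reliably expressed when 3 or more of the 4 libraries had an FPKM of 1 or above, which held for 9191 mRNAs and for 7 of the 9 members. LIF reached that level in 1 library and IL6R in 0, so that they did not pass, and IL11 passed with 3 libraries. A reliably expressed gene was called up- or downregulated when its ratio was at least 2 on the scale of log2(FPKM + 0.01), which understates changes of low genes. No test stands behind such a call.

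The 3 ligands were below their D0 level at D4 and D8, and none was lower at D8 than at D4. IL11, the cytokine that acts through IL11RA and gp130, had 26.1 FPKM at D0 and then 1.26, 0.679 and 1.11 at D2, D4 and D8. It stood high in the D0 library and low in the other 3, which did not come near it, and its place among all mRNAs went from percentile 87.5 at D0 to 36.8 at D4. The fall was 20.6-fold at D2 (log2 ratio -4.36, counting interval -4.63 to -4.13), 37.8-fold at D4 (-5.24, -5.57 to -4.97) and 23.2-fold at D8 (-4.54, -4.83 to -4.28). Of the 9191 reliably expressed mRNAs, IL11 ranked 6th from the bottom between D2 and D0, 4th between D4 and D0, and at the very bottom between D8 and D0. The filter takes genes that reached 1 FPKM at D0 only, such as LIF, out of this ranking, so that other steep falls have no rank. The chemokine gene CXCL8, left out in this way, had a log2 ratio of -5.51 between D4 and D0. The levels of IL11 at D2 and D8 did not differ beyond counting error (log2 ratio 0.17, -0.20 to 0.54), while D4 lay below both. The number of fragments behind the IL11 levels was 3812 at D0 and then 134, 98 and 117 at D2, D4 and D8.

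IL6, the founding cytokine of the family, took another course. Its FPKM was 5.97 at D0 and then 8.71, 2.35 and 2.35 at D2, D4 and D8. The D2 library was therefore the highest, 1.46-fold above D0 (log2 ratio 0.55, 0.37 to 0.72) and short of the ratio of 2, and D4 and D8 did not differ beyond counting error (0.00, -0.32 to 0.32). Between D4 and D2, IL6 was downregulated 3.70-fold (-1.89, -2.14 to -1.65) and ranked 16th from the bottom of 9191 mRNAs. At D4 and D8 it stood 2.53-fold below D0 in both libraries (-1.34, -1.59 to -1.10, and -1.34, -1.62 to -1.07). The gene lies on the plus strand at chr9:91506421-91510830.

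LIF encodes leukemia inhibitory factor, which signals through LIFR and gp130. Its level was 1.87 FPKM at D0 and then 0.249, 0.167 and 0.428 at D2, D4 and D8, so that only the D0 library reached 1 FPKM. The log2 ratio to D0 was -2.86 at D2 (-3.19 to -2.64), -3.40 at D4 (-3.77 to -3.20) and -2.10 at D8 (-2.35 to -1.92). These ratios rest on 1279, 124, 113 and 210 fragments in the order of the stages, and the gene, at chr14:47221540-47239513 on the minus strand, was not called because it is not reliably expressed. LIF and IL11 were thus both highest at D0 and lowest at D4, and D8 was 2.47-fold above D4 for LIF (1.30, 1.02 to 1.70) and 1.63-fold for IL11 (0.71, 0.31 to 1.12).

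**Figure D1:**
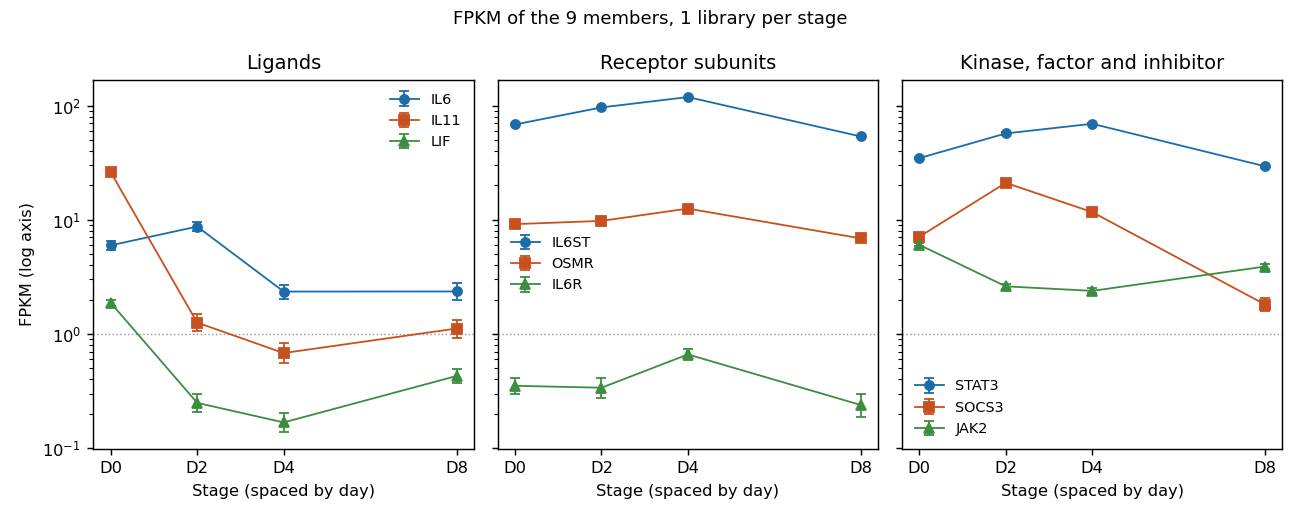
FPKM (log axis) of the 9 members at D0, D2, D4 and D8, with stages spaced by day, in panels for ligands, receptor subunits, and kinase, transcription factor and inhibitor. Each point is 1 library, bars are 95% Poisson counting intervals and the dotted line marks 1 FPKM; IL11 drops from 26.1 to 1.26 FPKM between D0 and D2, while IL6ST and STAT3 peak at D4.

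The contractile genes ACTA2, TAGLN, CNN1 and DES were, like IL11 and LIF and unlike IL6, well below their D0 level at D2. The summed FPKM of the 6 mural or smooth muscle markers was 6205 at D0 and then 664, 510 and 4810 at D2, D4 and D8. ACTA2, which encodes smooth muscle actin, had 2907 FPKM at D0 and then 324, 225 and 2762 at D2, D4 and D8. At D8 these 4 genes differed among themselves, with log2 ratios to D0 of -0.07 for ACTA2, -0.48 for TAGLN, -1.96 for CNN1 and -3.61 for DES. IL11, at -4.54, lay below all 4 of them, and LIF, at -2.10, lay close to CNN1 and above DES. MYH11 and RGS5, the other 2 markers, stayed under 1 FPKM in every library. The part of contractile cells in the levels of IL11 and LIF was not tested.

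**Figure D2:**
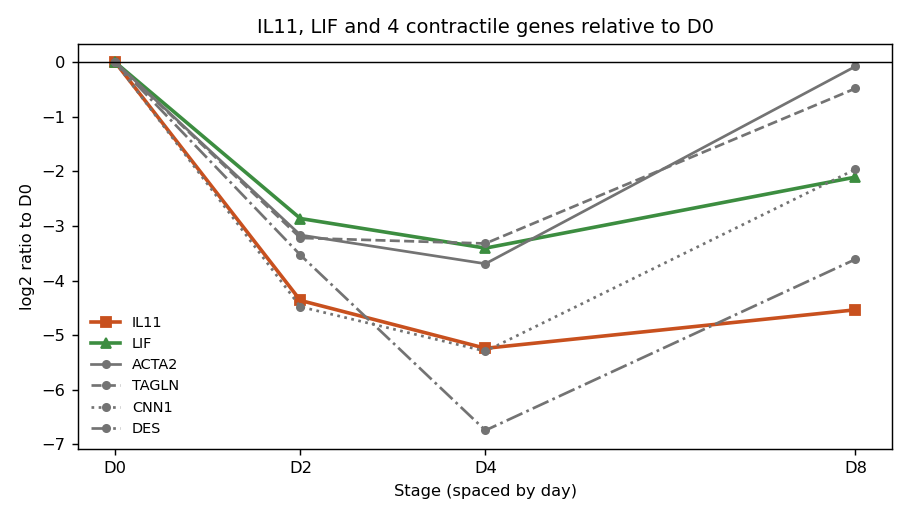
Log2 ratio to D0 of IL11, LIF and the contractile genes ACTA2, TAGLN, CNN1 and DES at each stage, spaced by day, with 1 library per point. All of them are below D0 at D2 and D4, and at D8 the contractile genes spread from -0.07 (ACTA2) to -3.61 (DES), with LIF at -2.10 within that range and IL11 at -4.54 below it.

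The receptor subunits were highest at D4 and lowest at D8, in a narrower range than the ligands. IL6ST, the shared subunit gp130, had 68.3 FPKM at D0 and then 96.4, 119 and 53.6 at D2, D4 and D8. It was the most abundant member in each of the 4 libraries, between percentiles 93.9 and 97.2 of all mRNAs, and its highest level was 2.22-fold its lowest. OSMR, the subunit that binds oncostatin M together with gp130, had 9.15, 9.77, 12.5 and 6.86 FPKM in the order of the stages. Its range of 1.82-fold was the narrowest of the 9 members, and it was called in 0 of the 5 comparisons.

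IL6R, the subunit that binds IL-6 itself, had 0.351 FPKM at D0 and then 0.337, 0.661 and 0.238 at D2, D4 and D8. It was under 1 FPKM throughout, and D0 and D2 did not differ beyond counting error (log2 ratio 0.06 for D0 over D2, -0.31 to 0.43). Per length, IL6ST was 195-fold more abundant than IL6R at D0, 286-fold at D2, 180-fold at D4 and 225-fold at D8. IL6R lies on the minus strand at chr4:95322426-95381393. IL6ST and OSMR are both on chromosome 16, IL6ST on the minus strand at chr16:35101304-35151832 and OSMR on the plus strand at chr16:24041312-24101842.

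Among the signalling genes, STAT3 followed the receptors and SOCS3 peaked earlier. STAT3, the main transcription factor of the pathway, had 34.6 FPKM at D0 and then 57.0, 69.3 and 29.4 at D2, D4 and D8. Between D4 and D0 its log2 ratio was 0.999951 (0.96 to 1.04), just short of the threshold of 1. IL6ST was 1.97-fold as abundant as STAT3 at D0, 1.69-fold at D2, 1.71-fold at D4 and 1.83-fold at D8, so that their ratio moved little while both levels changed.

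SOCS3, the feedback inhibitor, had 7.09 FPKM at D0 and then 21.1, 11.7 and 1.81 at D2, D4 and D8. The 4 libraries were set apart by more than counting error, and the highest was 11.7-fold above the lowest. SOCS3 was upregulated 2.97-fold between D2 and D0 (log2 ratio 1.57, 1.48 to 1.66) and stood at rank 254 from the top. Between D8 and D4 it was downregulated 6.43-fold (-2.68, -2.88 to -2.50), which put it 15th from the bottom, and at D8 it was 3.91-fold below D0 (-1.97, -2.17 to -1.78), 25th from the bottom.

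JAK2, a kinase bound to gp130 and to many other cytokine receptors, had 6.03 FPKM at D0 and then 2.61, 2.38 and 3.89 at D2, D4 and D8. It was lowest at D4, the stage at which STAT3 was highest. JAK2 was downregulated 2.31-fold at D2 (log2 ratio -1.21, -1.30 to -1.12) and 2.52-fold at D4 (-1.34, -1.42 to -1.26), and at D8 it was 1.55-fold below D0 and not called. STAT3 and SOCS3 are both on chromosome 12, at chr12:20407316-20471091 and chr12:3643832-3647015 on the plus strand, and JAK2 is on the minus strand at chr1:216849744-217002310.

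**Figure D3:**
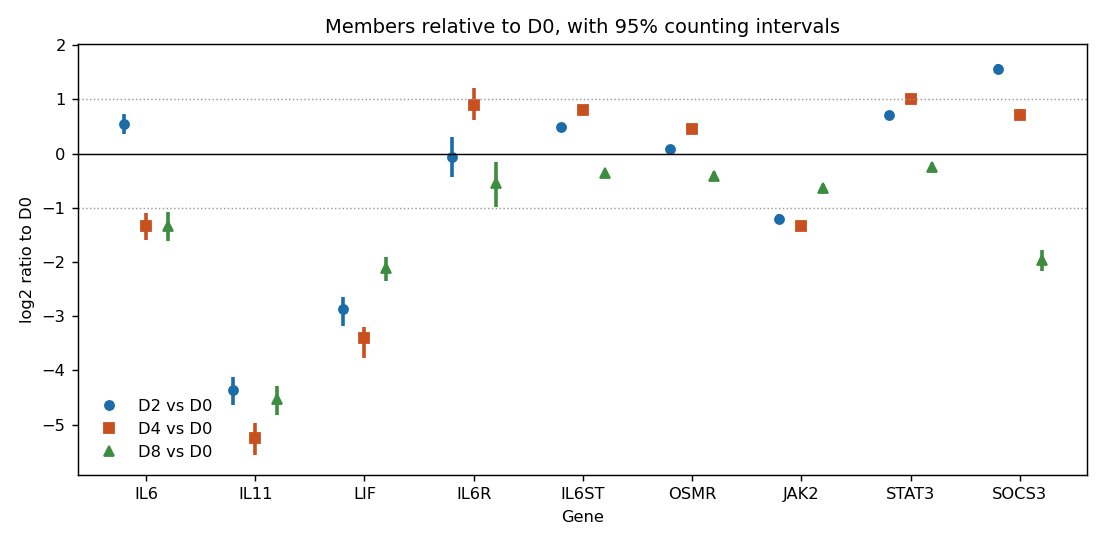
Log2 ratio of each member at D2, D4 and D8 to D0, on the scale of log2(FPKM + 0.01), with 95% counting intervals as vertical lines and dotted lines at a ratio of 2 in either direction. IL11 and LIF lie far below 0 at the 3 stages, SOCS3 goes from 1.57 at D2 to -1.97 at D8, and OSMR stays within the dotted lines.

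Between D2 and D0, that is over the 2 days in the cocktail, SOCS3 was upregulated and IL11 and JAK2 were downregulated, 3 of the 7 reliably expressed members. Of all 9191 reliably expressed mRNAs, 16.8% were called in this comparison, 6.67% upregulated and 10.1% downregulated. IL6, IL6ST and STAT3 were 1.46-fold, 1.41-fold and 1.65-fold higher and were not called.

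Between D4 and D2, IL6 was the only member called, and it was downregulated, beside 5.08% of all mRNAs called, 4.24% upregulated and 0.838% downregulated. IL11 (log2 ratio -0.88, -1.28 to -0.50) and SOCS3 (-0.85, -0.93 to -0.77) were lower as well, 1.84-fold and 1.80-fold, and were not called. In this comparison 62.5% of the mRNAs were higher at D4, and IL6, IL11 and SOCS3 ranked 16th, 112th and 123rd from the bottom.

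Between D8 and D4, IL6ST, STAT3 and SOCS3 were downregulated and 0 members were upregulated. The share of all mRNAs called was 14.5%, with 4.43% upregulated and 10.1% downregulated. The fall was 2.22-fold for IL6ST (log2 ratio -1.15, -1.18 to -1.12) and 2.36-fold for STAT3 (-1.24, -1.29 to -1.19). The median mRNA was also lower at D8, by -0.21 on the log2 scale. With that shift taken out by median-ratio scaling, the log2 ratio was -0.94 for IL6ST, which was then not called, -1.03 for STAT3 and -2.47 for SOCS3, and the share of upregulated genes among all those called went from 30.5% to 52%.

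Between D4 and D0, IL11, IL6 and JAK2 were downregulated and 0 members were upregulated, beside 19.2% of mRNAs called, 10.4% upregulated and 8.81% downregulated. Between D8 and D0, IL11, IL6 and SOCS3 were downregulated, beside 7.28% of mRNAs called, 3.6% upregulated and 3.68% downregulated. The median log2 ratio of all mRNAs was -0.18 between D8 and D0, and with median-ratio scaling the ratios were -4.38 for IL11, -1.18 for IL6 and -1.81 for SOCS3. That scaling moved the share of upregulated genes among all those called from 49.5% to 66.1%. The comparisons with D0 share the D0 library, so that a D0 value that is off would enter all 3 of them.

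**Figure D4:**
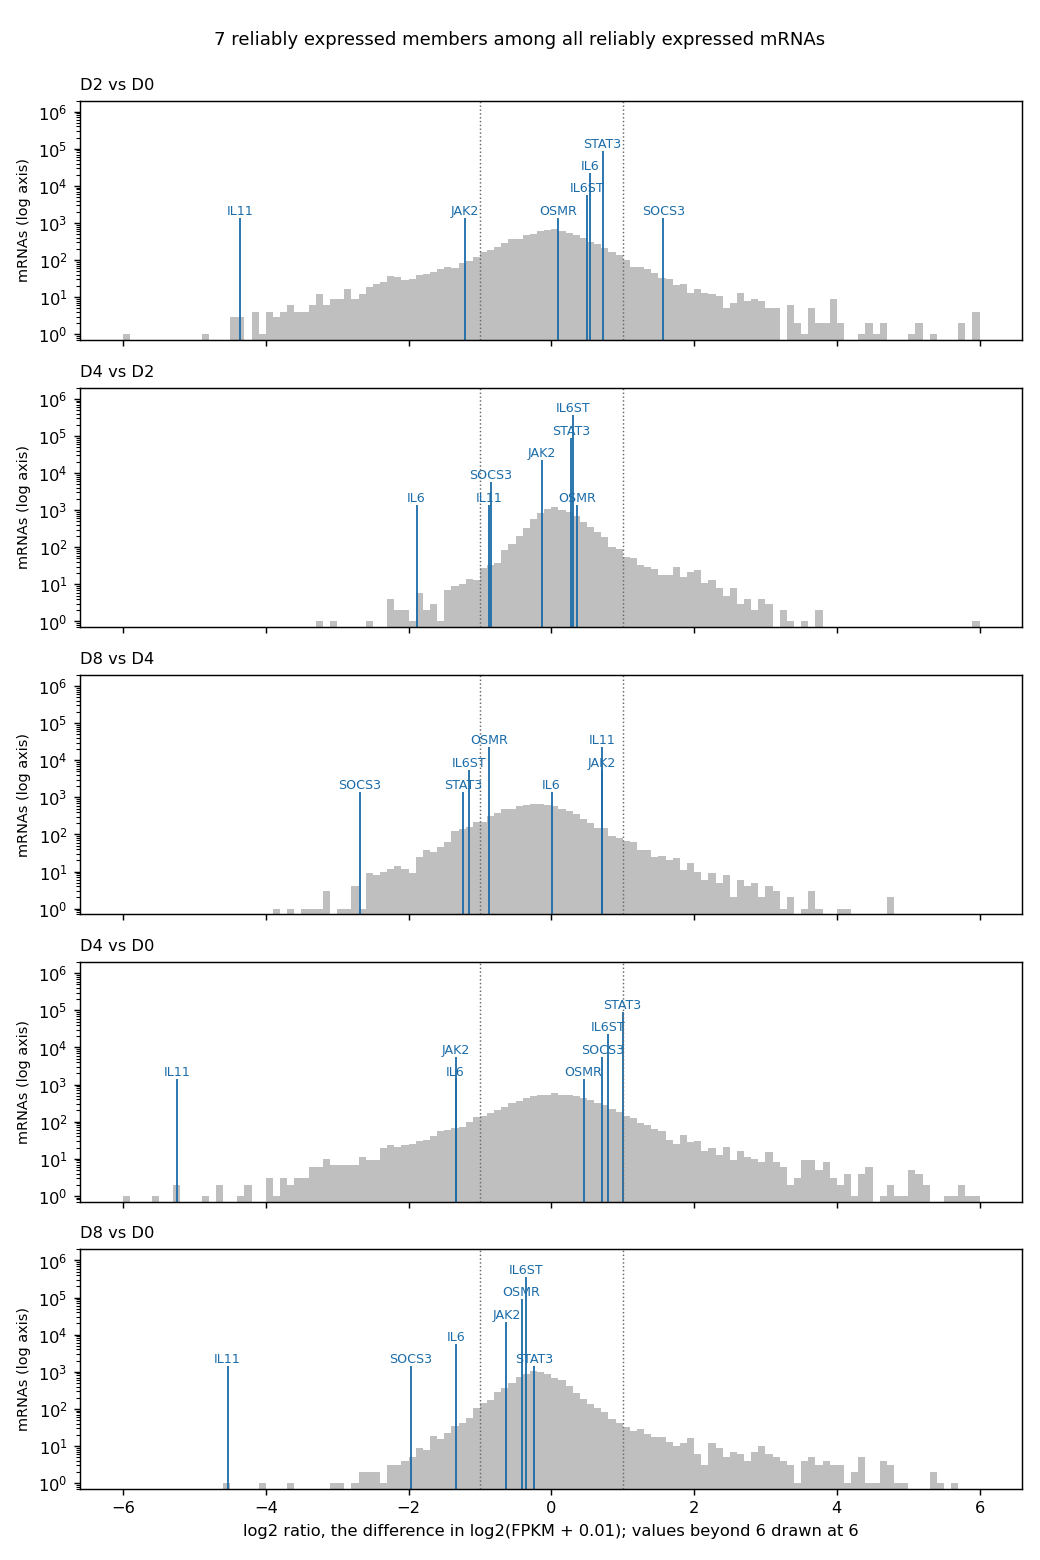
Histograms of the log2 ratios of the 9191 reliably expressed mRNAs in each of the 5 comparisons (number of mRNAs on a log axis, dotted lines at a ratio of 2), with the 7 reliably expressed members as blue lines whose height has no meaning. IL11 lies at the lower end in the comparisons with D0, IL6 at -1.89 between D4 and D2, and SOCS3 at -2.68 between D8 and D4.

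D8 was the highest stage for 0 of the 9 members and the lowest for 5 (IL6R, IL6ST, OSMR, STAT3 and SOCS3). Of all reliably expressed mRNAs, 9.51% were highest and 37.5% lowest at D8. IL11, LIF and JAK2 had their lowest value at D4, a stage at which 17.5% of mRNAs were lowest, and the 2 low values of IL6, at D4 and D8, were not apart. D0 was the highest stage for IL11, LIF and JAK2, D2 for IL6 and SOCS3, and D4 for IL6R, IL6ST, OSMR and STAT3. Of all reliably expressed mRNAs, 36.5% were highest at D0, 16.7% at D2 and 37.3% at D4, so that peaks at D0 or D4 are common.

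Of the further ligands of the family, the 5 described here were below 3 FPKM in every library. CLCF1, a ligand of the CNTF receptor, had 1.34 FPKM at D0 and then 0.335, 0.208 and 0.497 at D2, D4 and D8, and was not reliably expressed. CNTF, ciliary neurotrophic factor, had 1.98, 1.54, 1.43 and 2.96 FPKM and was upregulated between D8 and D4 (log2 ratio 1.05, 0.74 to 1.37). OSM, EBI3 and IL27 were at or under 0.0512 FPKM in every library, so that OSMR was present with its ligand oncostatin M near 0. In all, 9 of 11 listed ligand genes had a value and 4 were reliably expressed, and among these 0 were upregulated and 1, 2 and 2 were downregulated at D2, D4 and D8 against D0. Their median log2 ratio was 0.09, -0.91 and -0.97, where that of all mRNAs was -0.03, 0.06 and -0.18. Without the filter on low FPKM the D2 median of the 9 ligand genes was -1.66. Of all reliably expressed mRNAs, 6.67%, 10.4% and 3.6% were upregulated and 10.1%, 8.81% and 3.68% downregulated at D2, D4 and D8 against D0. These shares and the medians of all mRNAs are the background of each list below.

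Of the 8 listed receptor genes, 6 had a value and 4 were reliably expressed, and 0 were called in either direction against D0. Their median log2 ratio to D0 was 0.30 at D2, 0.62 at D4 and -0.38 at D8. IL11RA, the subunit that binds IL-11, had 12.3 FPKM at D0 and then 23.7, 22.8 and 17.9 at D2, D4 and D8. Its log2 ratio to D0 was 0.94, 0.88 and 0.54, above 0 at the stages at which IL11 was down. IL27RA, the interleukin-27 subunit, had 10.9, 9.74, 10.6 and 6.52 FPKM, and CNTFR, which binds CNTF, was at or under 0.473 FPKM.

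Of the 4 Janus kinases, 3 were reliably expressed. JAK1, the kinase most used by gp130, had 26.8 FPKM at D0 and then 46.2, 54.9 and 28.7 at D2, D4 and D8. It was upregulated at D4 (log2 ratio 1.04, 1.01 to 1.07), just past the threshold of 1 and in a direction opposite to that of JAK2. Median-ratio scaling took STAT3 in this comparison from 0.999951 to 0.94. That scaling shifts all ratios of a comparison by nearly the same amount, which would put JAK1 under the threshold as well. TYK2 had 8.42, 6.53, 8.57 and 5.73 FPKM and was not called. Of the 7 STAT genes, 6 were reliably expressed, with a median log2 ratio to D0 of 0.58 at D2, 0.81 at D4 and 0.09 at D8. STAT2, which acts downstream of interferon, was upregulated at D2 and D4 (17.9, 40.2, 37.4 and 23.3 FPKM; log2 ratios 1.17 and 1.07). STAT5A was upregulated at D4 (1.10), and 0 STAT genes were downregulated against D0.

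Of the 16 listed inhibitors of JAK-STAT signalling, 14 were reliably expressed, and 3, 3 and 1 were upregulated and 1, 0 and 1 downregulated at D2, D4 and D8 against D0. CISH, an inhibitor best known from STAT5 signalling, was the gene that was upregulated at all 3 stages, with 0.225 FPKM at D0 and then 3.49, 8.14 and 3.09 at D2, D4 and D8 (log2 ratios 3.90, 5.11 and 3.72). Unlike SOCS3, CISH was above its D0 level at D8. PTPN1, a tyrosine phosphatase that acts on JAK2 and on the insulin receptor, had 5.38, 11.2, 20.1 and 4.74 FPKM. It was upregulated at D2 (1.06, 0.98 to 1.15) and D4 (1.90). The gene downregulated at D2 was PIAS3, an inhibitor of STAT3 (-1.01, -1.26 to -0.78), with an interval that holds the threshold. The median log2 ratio of the 14 genes was 0.02, 0.17 and -0.25, near the -0.03, 0.06 and -0.18 of all mRNAs.

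ADAM10, ADAM17 and FURIN, the proteases of receptor shedding and precursor cleavage, were each called in 0 comparisons with D0. Their median log2 ratio was 0.29 at D2, 0.28 at D4 and -0.43 at D8.

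Genes that STAT3 or cytokines of the family are known to induce did not move one way. Of 26 such genes, 25 had a value and 20 were reliably expressed, of which 3 were upregulated and 8 downregulated at D2, 3 and 8 at D4, and 1 and 4 at D8. Of all reliably expressed mRNAs, 6.67% were upregulated and 10.1% downregulated at D2, 10.4% and 8.81% at D4, and 3.6% and 3.68% at D8. The median log2 ratio of the 20 genes was -0.59, -0.61 and -0.39, where that of all mRNAs was -0.03, 0.06 and -0.18. CCL2, the monocyte chemokine, was downregulated throughout, with 54.7 FPKM at D0 and then 6.50, 6.65 and 21.4 at D2, D4 and D8 (log2 ratios -3.07, -3.04 and -1.36). TNFRSF12A, the receptor of TWEAK, and IER3, an early response gene, were also downregulated at the 3 stages (150, 28.7, 37.0 and 73.2 FPKM for TNFRSF12A; 26.6, 6.17, 4.13 and 7.14 FPKM for IER3). PIM1, a kinase gene, had 6.06, 0.739, 1.60 and 3.15 FPKM and was downregulated at D2 and D4 (-3.02 and -1.91). CCND1, HIF1A, VEGFA and KLF4 were downregulated at the same 2 stages, by log2 ratios between -2.48 and -1.01.

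In the other direction, FOS was upregulated at the 3 stages (1.49, 9.83, 9.66 and 4.46 FPKM; log2 ratios 2.72, 2.69 and 1.58). MYC was upregulated at D2 and D4 (3.67, 10.3, 14.3 and 3.99 FPKM; 1.49 and 1.96). FOS and MYC encode transcription factors induced by many growth signals. CEBPD, a transcription factor of early adipogenesis, was upregulated at D2, with 140, 299, 178 and 165 FPKM (1.09 at D2). SOCS3 and CEBPD thus shared D2 as their highest stage, as did IL6, FOS and 16.7% of all reliably expressed mRNAs.

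**Figure D5:**
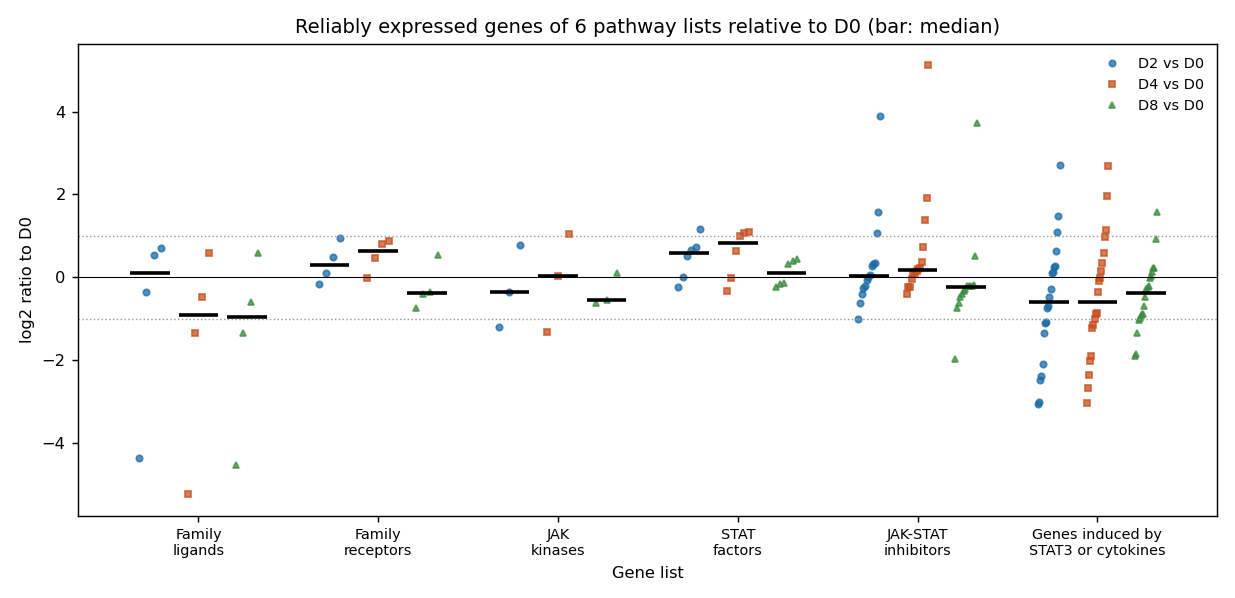
Log2 ratio to D0 of each reliably expressed gene in 6 lists (family ligands, family receptors, JAK kinases, STAT factors, JAK-STAT inhibitors, and genes induced by STAT3 or by cytokines of the family), at D2, D4 and D8, with the median as a bar and dotted lines at a ratio of 2. The receptors and most STAT genes lie between the dotted lines, CISH is the topmost inhibitor at 5.11 (D4), and the induced genes spread from -3.07 (CCL2, D2) to 2.72 (FOS, D2).

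Other mRNAs shared the course of some members closely. Likeness was measured as the distance between log2(FPKM + 0.01) values centred on the mean of the gene, over 4 libraries, where 0 is an identical course. The nearest genes to IL6ST were PHKA1 (0.03), SOX4 (0.04) and DSTYK (0.04), those to OSMR were CDK12, HUWE1 and PGLS (0.02 to 0.03), and those to STAT3 were ADPRH (0.03), LOC110257391 (0.04) and CLCN7 (0.05). JAK2 was nearest to RAP2C (0.07), RPS6KC1 (0.08) and ZNF444 (0.09). The genes nearest to IL6, SOCS3 and IL11 lay farther off. IL6 was nearest to C1QTNF2 (0.30), GPRC5B (0.56) and SEC14L2 (0.66), and SOCS3 to ICOSLG (0.52), PDE7B (0.58) and ANGPTL4 (0.71). For IL11 the nearest were CLDN1 (1.52), ENO3 (1.67) and SERPINE2 (1.78), each of which, like IL11, was highest at D0.

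CircRNAs, closed RNA loops read from back-spliced junctions, came from 4 of the 9 genes. In all, 10 circRNAs lay within these genes, with 25, 34, 14 and 24 junction reads in the order of the stages, or 0.047%, 0.0773%, 0.0274% and 0.064% of all junction reads of the library. JAK2 had 6 of them, with 18 reads at D0 and then 8, 2 and 0 at D2, D4 and D8, and each of the 6 was listed in a single library. STAT3 had 2, with 7, 13, 8 and 8 reads, IL6ST had 1 with 0, 13, 4 and 8, and OSMR had 1 with 8 reads at D8 only. CircRNAs under 2 junction reads had been removed by the authors, so that 0 stands for not listed.

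Other RNAs at the members were low. An antisense transcript assembled at IL6ST (chr16:35102499-35103669) had 1.43, 1.29, 1.26 and 1.54 FPKM, against 53.6 to 119 for IL6ST. A second opposite-strand lncRNA at IL6ST, a pair of them at OSMR, and a same-strand pseudogene inside JAK2 were at or under 0.188 FPKM. The library kit kept the strand, and the setting of the counting is not given in the sources used here, so that reads of these overlaps may be shared.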

How the data were processed

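The authors removed low-quality and adaptor reads, aligned the rest to the build Sscrofa11.1 with HISAT2 2.0.5 (version from the submitters' processing notes), and deposited FPKM for genes. For circRNAs they used BWA-MEM and CIRI and deposited SRPBM, junction reads scaled by mapped reads, in the same column. Depth was computed from the FPKM values alone. The smallest whole fragment numbers in the ratio of the 4 values of a gene were taken, so that true numbers can be whole multiples and intervals too wide. They were found for 9189 of 9191 reliably expressed mRNAs, and the procedure was tested on simulated data. Intervals of levels are exact Poisson and those of ratios exact binomial (Clopper-Pearson), at 95%.

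All 4 libraries entered the filter, and 5 comparisons were made without a test, with the threshold of the study's methods. A DEGseq test on reads was not run. Some genes of the lists are counted but not reported here by name. The members and lists were chosen with earlier results of these data known. Named genes are the members, any further ligand or receptor, list genes called in at least 2 of 3 comparisons with D0, and the 3 nearest genes by course. CEBPD, JAK1, STAT5A, PIAS3, TYK2, the proteases and the genes of the closing section called at fewer than 2 stages were named after their values were seen. Symbols were matched to RefSeq (Sscrofa11.1). Python 3.11.15, pandas 2.3.3 and SciPy 1.17.1 were used.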

Additional observations from a re-analysis of the deposited data

How the results depend on the processing

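No paired analysis was possible because each stage is 1 library, and for the same reason no library could be left out. Over 8 alternatives and 5 comparisons, 36 of 40 counts of members called stayed within 1.5 times the reported count. The other 4 counts were 5 members in D8 vs D4 without the filter, which added IL6R and LIF, and, at a ratio of 1.5, 6 members in D8 vs D4, 6 in D4 vs D0 and 3 in D4 vs D2. A pseudocount of 1 lost JAK2 between D2 and D0 (log2 ratio -0.96), median-ratio scaling lost IL6ST between D8 and D4, scaling to protein-coding FPKM added STAT3 between D4 and D0 (1.04), and a filter on all 4 libraries removed IL11. No called member changed direction, but these alternatives could not have brought that about. Pseudocounts, filters and thresholds keep the sign of a ratio, and the scalings shift it by far less than the log2 threshold of 1. Without the filter, 4793, 3020, 4480, 5221 and 3510 mRNAs were called in the comparisons of D2 with D0, of D4 with D2, of D8 with D4, of D4 with D0 and of D8 with D0, against 1545, 467, 1335, 1768 and 669. At a ratio of 1.5 these were 3279, 1344, 3296, 3629 and 1976, and with a pseudocount of 1 they were 1100, 271, 766, 1273 and 414. Of 180 member ratios, 54 moved beyond their counting interval. Of 270 list medians, 74 moved. Without the filter, the sign changed against D0 for the ligands at D2 (-1.66), the JAK kinases at D4 (-0.66) and the inflammatory inputs at D4 (-0.13), and the filter on all 4 libraries did so for the other cytokine receptors at D2 (-0.07). Other sign changes were of medians close to 0 or, for the JAK kinases between D8 and D4 without the filter, to 0.06. Counting error was widest for IL6R (75 fragments at D8) and IL11 (98 at D4), and the spread between piglets cannot be read from pooled libraries.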

Other observations

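Genes known to act upstream of IL6 family ligands differed among themselves. Of 18 inflammatory inputs, 16 had a value and 10 were reliably expressed, with 1 upregulated and 2 downregulated at D2, 3 and 1 at D4, and 0 at D8. IL1R1, the interleukin-1 receptor, was upregulated at D2 and D4 (16.0 FPKM at D0 and then 65.7, 58.1 and 30.9 at D2, D4 and D8; log2 ratios 2.04 and 1.86). NFKB2, a subunit of NF-kB, was downregulated at the same stages (9.02, 3.52, 3.07 and 5.68 FPKM; -1.35 and -1.55). The cytokine gene IL1A, the chemokine gene CXCL8 and PTGS2, which encodes cyclooxygenase 2, were not reliably expressed and were named after their values were seen. CXCL8 had 5.41 FPKM at D0 and then 0.440, 0.109 and 0.733 at D2, D4 and D8, PTGS2 had 3.79, 0.896, 0.22 and 0.926, and IL1A had 2.90, 0.216, 0.238 and 1.54. Like IL11 and LIF, these 3 genes were highest at D0, as were 36.5% of all reliably expressed mRNAs, a set they are not part of. Among the reliably expressed genes of the list, NFKB2, NFKB1, RELA and RELB were highest at D0, and IL1R1 was highest at D2. NFKBIA, ZFP36, MYD88, ZC3H12A and TNFRSF1A were highest at D4. Of these, NFKBIA and ZFP36 were upregulated at D4 against D0 (log2 ratios 1.57 and 1.74). The list's median log2 ratio to D0 was -0.08 at D2, 0.35 at D4 and -0.20 at D8, where that of all mRNAs was -0.03, 0.06 and -0.18.

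Of 19 other class I and II cytokine receptors, 14 had a value and 8 were reliably expressed, with 2, 3 and 1 upregulated and 0 downregulated at D2, D4 and D8. GHR, the growth hormone receptor, had 0.299 FPKM at D0 and then 1.88, 4.69 and 2.43 at D2, D4 and D8 (log2 ratios 2.61, 3.92 and 2.98). IL13RA1, a receptor of interleukin-13, was upregulated at D2 and D4 (23.9, 78.7, 72.0 and 40.3 FPKM; 1.72 and 1.59). IL4R, with which it pairs, was upregulated at D4 (log2 ratio 1.5). The list's median log2 ratio was 0.29, 0.54 and -0.27, beside -0.03, 0.06 and -0.18 for all mRNAs. LEPR, the leptin receptor, was at or under 0.0628 FPKM in every library.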
